A study of Mus musculus with 9 samples.

Results

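The cell cycle and DNA replication genes examined here are 49 genes taken by symbol from a list of cyclins, cyclin-dependent kinases (CDKs), their inhibitors and effectors of S phase and mitosis, out of 22154 genes with a summed read count. They comprised 3 D cyclins, 5 CDK inhibitors, 11 other regulators of G1 (kinases, E cyclins, RB and E2F proteins), 14 genes of S phase and DNA replication, and 16 genes of G2 and M phase. RNA was sequenced from splenic B cells of 9 C57/BL6NTac mice, 1 library per mouse. In 3 Eµ-MTCP1 mice (Z2551, Z2606 and Z2641) a human MTCP1 transgene, hMTCP1, stood under an immunoglobulin heavy chain variable region promoter and the Eµ enhancer, so that its expression was directed to B cells. In 3 Eµ-TCL1 mice (B4376, B4437 and C1594) the human TCL1 transgene, hTCL1, was under the same kind of control. The 3 wildtype mice (Z2754, Z2755 and Z2785) carried neither, and the study calls its wildtype mice littermates without tying each to a litter. Below, values are also given as with hMTCP1 or with hTCL1. All Eµ-MTCP1 mice came from 1 founder line, Z36, in which many copies of the transgene sat in an intron of Fam168a, so line and transgene cannot be told apart. The transgenic mice had met the criteria for euthanasia, and the ages of the sequenced mice are not given in the sources used here. B cells were enriched from whole spleen with a negative-selection kit.

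Passage through G1 is driven by D cyclins bound to CDK4 or CDK6 and by E cyclins bound to CDK2, which phosphorylate RB proteins and release E2F factors onto the promoters of replication genes. CDK inhibitors of the Cip/Kip family (p21, p27) and the INK4 family (p16, p18, p19) restrain these kinases. S phase then needs the MCM helicase and nucleotide synthesis, and mitosis needs cyclin B with CDK1, the Aurora and Polo kinases and the spindle checkpoint. Resting mature B cells keep these programs low, cyclin D2 is the D cyclin that B cells induce on antigen receptor stimulation, and chronic lymphocytic leukemia is known as a disease of mostly resting cells with a small dividing pool. In bulk RNA, fewer cells of a type and less RNA per cell cannot be told apart, and this holds for every level given here.

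The libraries held between 6447539 and 8033309 assigned reads, so that 3 reads correspond to 0.373 to 0.465 CPM (reads scaled to a common effective library size), and the 49 genes took 0.186 to 0.445% of the reads. The transgenes matched the labels: the authors' normalized log2 level of hTCL1A was 14.93 to 15.6 in Eµ-TCL1 mice and 6.04 to 6.96 elsewhere, and that of hMTCP1 was 11.12 to 12.3 in Eµ-MTCP1 mice and 5.85 to 6.19 elsewhere, where 5.85 is the floor of that scale. The summed level of 8 B cell markers was 7732 to 11416 CPM in every library, against 34.8 to 140 CPM for 8 T cell markers. Z2755 and Z2641 stood apart by Mpo and Elane, genes of granulocyte precursors, with 2985 and 1265 CPM for the pair against 17.4 to 174 CPM in the other 7 mice. Of the T cell genes, Cd3e was at 7.05 CPM in B4376 and at 0 to 1.66 CPM elsewhere, and Cd3g was at 22.5 CPM in Z2641, 20.2 CPM in B4376, 8.23 CPM in B4437 and 7.42 CPM in C1594, against 0.492 to 1.73 CPM in the other 5 mice. The summed level of all 10 myeloid markers was 371 to 1570 CPM in those 7 mice, 2557 CPM in Z2641 and 4695 CPM in Z2755. Of 9 erythroid markers listed, the 8 with counts summed to 304 CPM in Z2641 and to 20.2 to 134.9 CPM in the others. Z2755 was also the only library run on lane 1, the other 8 having been run on lane 5. Mitochondrial transcripts took 8.02% of the reads in Z2641 and 10.8% in Z2754, against 2.91 to 4.58% in the other 7 mice, and immunoglobulin genes took 15.6% in Z2606, against 3.39 to 9.39% in the other 8. For the main results that rest on Z2641 and Z2755, values without them are also given.

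Promoter windows from 250 bases before to 50 bases after the annotated start (RefSeq, GRCm38.p6) were at hand for 40 of the 49 genes, as 47 windows of 300 bases. Ccnd1, Ccnd2, Ccne2, Rb1, Mcm4, Gins2, Ccna2, Aurkb and Foxm1 were not among them. The windows were searched on both strands for CHR, the cell cycle genes homology region (letters TTTGAA), for the CCAAT box (letters CCAAT), and for E2F (letters TTTCCCGC, TTTGGCGC, TTTCGCGC or TTTGCCGC, whose matches on opposite strands can overlap). CHR letters stood in 9 of 13 windows of G2 and M phase genes and in 1 of 13 windows of S phase genes, beside 17.9% of all 32851 windows. E2F letters stood in 1 of 13 G2 and M phase windows, in 6 of 13 S phase windows and in 4 of 11 windows of the other G1 regulators, beside 2.265% of all windows. CCAAT was held by 11 of 13 G2 and M phase windows and by 9 of 13 S phase windows, beside 37.4% of all. A match describes the letters only and says nothing of binding in these cells.

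The whole windows of Mki67 and Ccne1 are shown because these genes stood out in the comparisons below, with CHR, CCAAT and E2F letters in capitals on either strand. Mki67 holds CHR letters at 2 places close to CCAAT letters, and Ccne1 holds none of the 3 motifs in this window. Tyms, an S phase gene that also stood out below, holds none of the 3 in its window, which is not shown.
Mki67, chr7:135716330-135716629, minus strand: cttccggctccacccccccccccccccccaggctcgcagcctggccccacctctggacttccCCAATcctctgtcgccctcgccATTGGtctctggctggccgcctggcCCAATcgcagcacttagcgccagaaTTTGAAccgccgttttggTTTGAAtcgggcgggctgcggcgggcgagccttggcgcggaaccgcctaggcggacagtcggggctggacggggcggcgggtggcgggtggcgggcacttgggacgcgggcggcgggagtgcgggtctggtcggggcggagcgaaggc
Ccne1, chr7:38107441-38107740, minus strand: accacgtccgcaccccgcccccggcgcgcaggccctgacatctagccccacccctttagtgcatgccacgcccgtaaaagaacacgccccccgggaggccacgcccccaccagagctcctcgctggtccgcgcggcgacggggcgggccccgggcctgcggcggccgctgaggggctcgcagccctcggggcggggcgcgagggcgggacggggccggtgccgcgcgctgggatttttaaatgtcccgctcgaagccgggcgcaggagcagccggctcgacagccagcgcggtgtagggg

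The following stretches show the letters in context, in capitals, first for 3 G2 and M phase genes with CHR letters, then for 3 S phase genes and 2 G1 regulators with E2F letters (a match on the minus strand of the gene reads as the reverse complement). In Mcm5 a match on the other strand, not marked here, overlaps the letters in capitals.
Cdk1, chr10:69352914-69352935, minus strand: gcggcgagTTTGAAactgctgg
Cdc20, chr4:118437348-118437369, minus strand: agttgggtTTTGAAggagccaa
Plk1, chr7:122159457-122159478, plus strand: gcgccgcgTTTGAAttcgggga
Mcm5, chr8:75109348-75109371, plus strand: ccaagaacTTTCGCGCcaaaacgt
Mcm6, chr1:128359737-128359760, minus strand: tggacgggTTTGGCGCgaagtagc
Cdc6, chr11:98908005-98908028, plus strand: ggtggagaGCGGGAAAtcgcctgg
Cdk2, chr10:128705176-128705199, minus strand: caggaactGCGGGAAAgttgtgca
E2f2, chr4:136172305-136172323, plus strand: gcatatagTTTGGCGCtaa

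Of the 49 genes, 47 passed the filter on low counts and were tested, all but Ccnd1 and Cdkn2a. Each comparison below was made with edgeR's quasi-likelihood test across 11165 genes, with Benjamini-Hochberg adjustment, and a gene is said to have risen or fallen where its adjusted p was under 0.05. In Eµ-MTCP1 against wildtype mice 4 members rose (Ccnd2, Ccne1, Tyms and Mki67) and none fell, which is 8.51% of the 47 tested, beside 9.48% of all genes tested (5.49% higher, 3.99% lower). In Eµ-TCL1 against wildtype mice Ccnd2 and Ccne1 rose and none fell, 4.26% of the 47, beside 9.2% of all genes (5.07% higher, 4.13% lower). With every call in the upward direction, the share was above the upward background in Eµ-MTCP1 mice and below it in Eµ-TCL1 mice, and neither difference in share was tested. The median log2 fold change of the tested members was 0.65 in Eµ-MTCP1 mice, with 40 of 47 above 0, and 0.19 in Eµ-TCL1 mice, with 32 of 47 above 0, while the median over all genes was -0.02 and -0.01. Both comparisons share the 3 wildtype libraries. The plot of 49 genes by mouse gives the values that lie behind these counts.

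**Figure D1:**
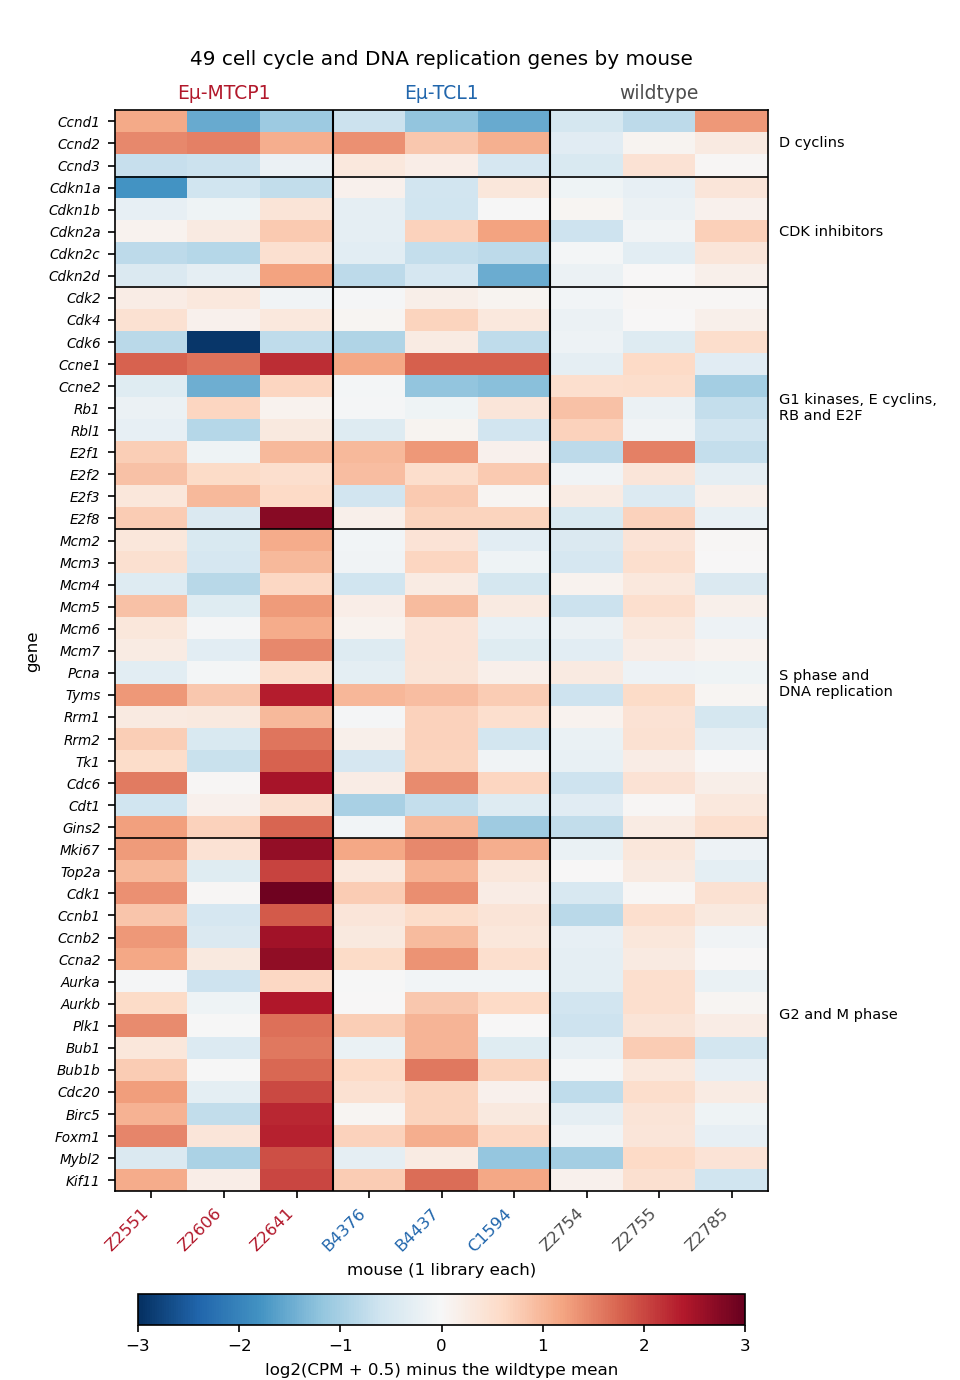
Each row is 1 of the 49 genes, grouped by role, and each column 1 mouse; color gives log2(CPM + 0.5) minus the mean of the 3 wildtype mice on a scale from -3 to 3, red above and blue below. The Ccnd2 and Ccne1 rows are red in all 6 transgenic mice, and the Z2641 column is the reddest over the S phase and the G2 and M phase rows.

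Ccnd2, which encodes cyclin D2 (chr6:127125162-127152193, minus strand, GRCm38), rose in both transgenic groups. Its level was 272, 282 and 212 CPM in Eµ-MTCP1 mice Z2551, Z2606 and Z2641, 256, 175 and 210.1 CPM with hTCL1 in B4376, B4437 and C1594, and 78.5, 105 and 119.7 CPM in wildtype mice Z2754, Z2755 and Z2785. Each of the 6 transgenic mice lay above each wildtype mouse. The log2 fold change was 1.34 ± 0.22 (SE) in Eµ-MTCP1 mice (edgeR adjusted p = 0.00462) and 1.08 ± 0.22 in Eµ-TCL1 mice (adjusted p = 0.0129). The rise in Eµ-MTCP1 mice was called under all 19 alternative settings. In Eµ-TCL1 mice it was called under 17, and missed without wildtype mouse Z2754 (log2 fold change 0.92) or without Z2755 (1.08), with adjusted p up to 0.0576.

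Ccnd3, encoding cyclin D3 (chr17:47505051-47599691, plus strand), did not follow Ccnd2. It stood at 33.6, 35.2 and 48.9 CPM in Eµ-MTCP1 mice, 68.6, 62.7 and 38.6 CPM in Eµ-TCL1 mice and 39.6, 73.9 and 56.6 CPM in wildtype mice, and the groups overlapped. The log2 differences were -0.53 (adjusted p = 0.282, 95% interval -1.18 to 0.11) and -0.00 (adjusted p = 0.998, 95% interval -0.64 to 0.64). Ccnd1, encoding cyclin D1, was hardly read at all: 16, 0 and 1 reads with hMTCP1, 3, 1 and 0 with hTCL1 and 4, 3 and 20 in wildtype mice. No difference in Ccnd1 was detectable at this depth.

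Set on a scale per coding length (TPM, transcript levels divided by length and scaled to a common total), Ccnd2 made up 88.3, 81.0 and 71.7% of the summed D cyclin level with hMTCP1 and 74.9, 62.6 and 79.9% with hTCL1, against 55.5, 45 and 54.3% in wildtype mice. On this scale the wildtype mice carried near-equal levels of Ccnd2 and Ccnd3, and Ccnd2 led in every transgenic mouse. In CPM Ccnd2 led in the wildtype mice too, at 78.55, 104.6 and 119.7 CPM against 39.64, 73.92 and 56.65 CPM for Ccnd3. Ccnd3 has 12 transcripts in this reference, and its TPM depends on the lengths of those to which its reads were given. On the standard mouse reference, which includes untranslated regions, the share was 71.8 to 85.3% among all 6 transgenic mice, above the 43.1 to 54.8% of wildtype mice. The summed D cyclin level differed less, at 232 ± 17.5 TPM (SD, n = 3) in Eµ-MTCP1, 244 ± 43.1 TPM in Eµ-TCL1 and 192 ± 49.2 TPM in wildtype mice, and these ranges overlapped. In CPM, which is corrected for composition, the sums of 261 to 318 with hMTCP1 and 238 to 325 with hTCL1 lay above those of 119 to 179 in wildtype mice.

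**Figure D2:**
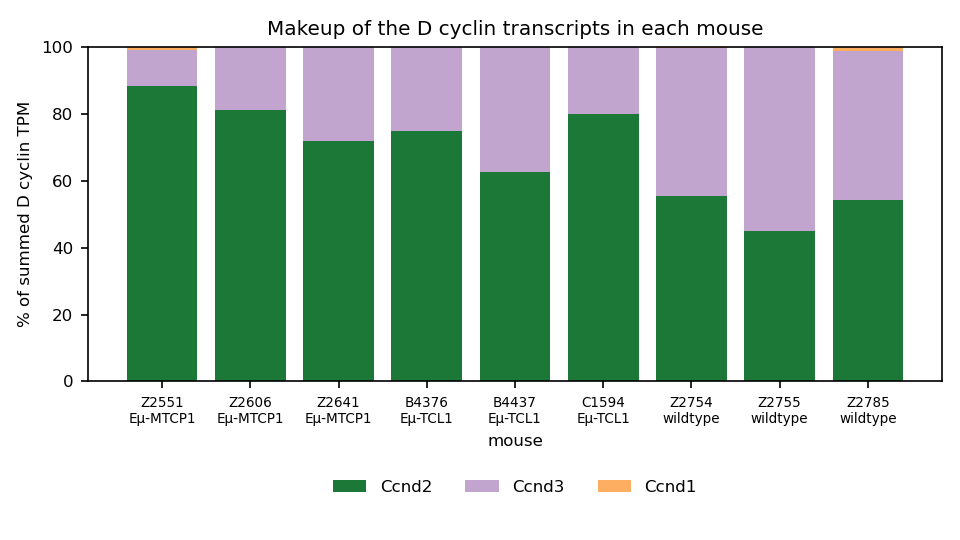
Bars divide the summed D cyclin TPM of each mouse among Ccnd2, Ccnd3 and Ccnd1, in percent. Ccnd2 takes 62.6 to 88.3% of each transgenic bar, against 45 to 55.5% of each wildtype bar.

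None of the 4 CDK inhibitors tested rose or fell in either comparison with wildtype mice. Cdkn1a, encoding p21, stood at 3.28, 8.24 and 7.43 CPM in Eµ-MTCP1 mice, below all 3 wildtype mice at 11.5, 10.6 and 16.5 CPM, and at 13.97, 8.35 and 16.2 CPM in Eµ-TCL1 mice, which overlapped them. Its log2 difference in Eµ-MTCP1 mice was -1.02 ± 0.41 (adjusted p = 0.157) and in Eµ-TCL1 mice -0.00 ± 0.40 (adjusted p = 0.999). Groups that do not overlap were common, at 29.9% of all genes with hMTCP1 against wildtype (14.7% above, 15.3% below) and 32.6% with hTCL1 (16.6% above, 16.1% below). Cdkn1b, encoding p27, which holds resting lymphocytes out of cycle, was near level, at 13.0, 14.2 and 20.3 CPM in Eµ-MTCP1 mice, 12.9, 10.2 and 15.4 CPM in Eµ-TCL1 mice and 16.1, 13.8 and 16.9 CPM in wildtype mice. The log2 differences were 0.02 (95% interval -0.60 to 0.64) and -0.28 (-0.91 to 0.34).

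Of the INK4 family, Cdkn2d, encoding p19Ink4d, was the most uneven. It stood at 26.1, 29.3 and 83.1 CPM in Eµ-MTCP1 mice, at 20.6, 25.2 and 12.5 CPM in Eµ-TCL1 mice and at 31.7, 35.8 and 39.7 CPM in wildtype mice. All Eµ-TCL1 mice lay below all wildtype mice, with a log2 difference of -0.88 ± 0.43 (adjusted p = 0.236), while Z2641 alone placed the Eµ-MTCP1 mean above wildtype. The log2 difference of 0.37 for Eµ-MTCP1 mice became -0.39 without Z2641. Cdkn2c, encoding p18, was low, at 1.97, 1.85 and 5.45 CPM with hMTCP1, 2.90, 2.09 and 1.96 CPM with hTCL1 and 3.59, 2.93 and 4.99 CPM in wildtype mice. Cdkn2a, which encodes p16 and, from another first exon, p19Arf, had 2, 3 and 5 reads with hMTCP1, 1, 6 and 9 with hTCL1 and 0, 2 and 5 in wildtype mice, too few to divide between its transcripts or to compare. Cdkn1b, Cdkn2c and Cdkn2d changed sign in Eµ-MTCP1 mice under some settings, so no direction is given for them.

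**Figure D3:**
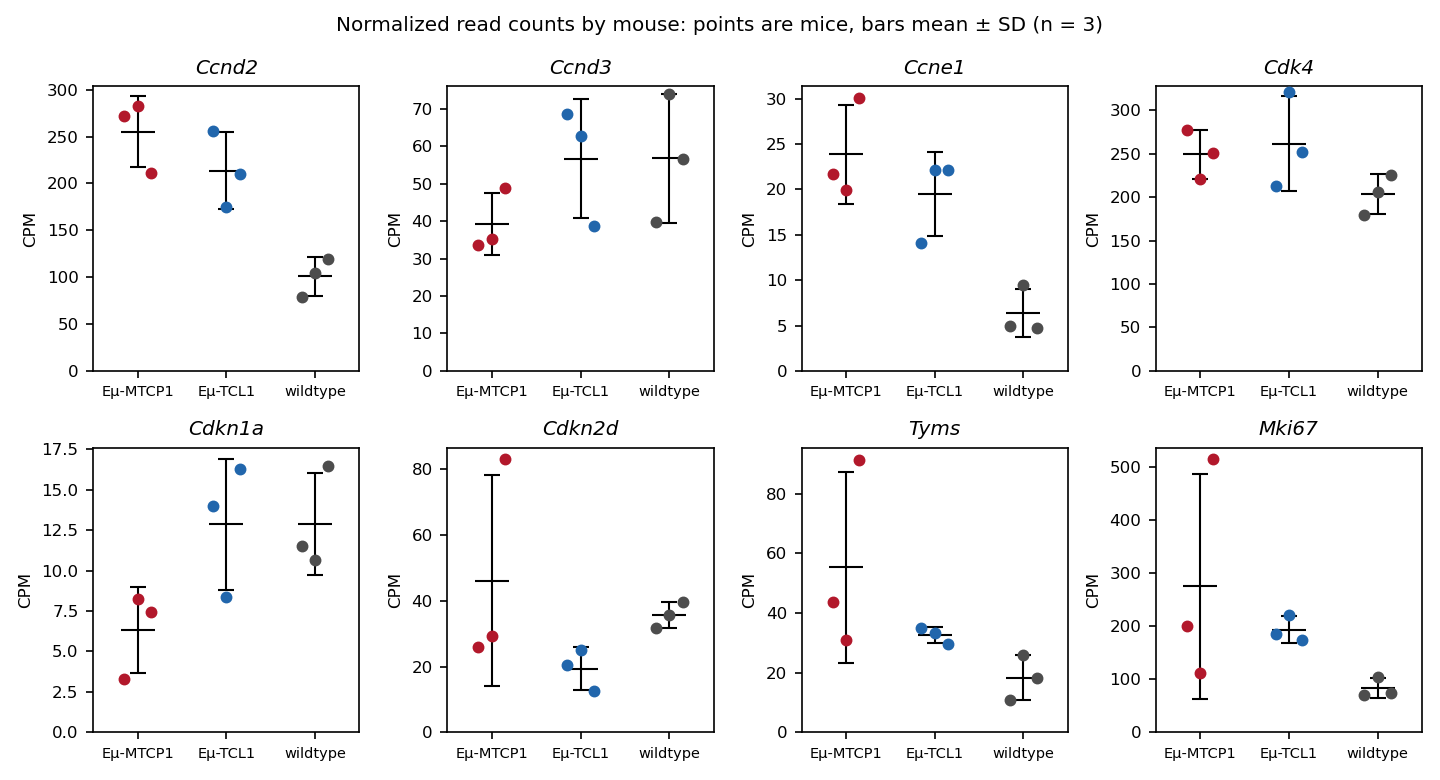
Each panel shows 1 gene, with normalized read counts (CPM) on the vertical axis, a point for each mouse, and bars for the mean ± SD of 3 mice. Ccnd2 and Ccne1 separate all 6 transgenic from all 3 wildtype mice, whereas Ccnd3 and Cdk4 overlap, and in Tyms, Mki67 and Cdkn2d the highest point is the Eµ-MTCP1 mouse Z2641.

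Among the other 11 regulators of G1, Ccne1 was the only one to pass the test. Ccne1 encodes cyclin E1, the partner of CDK2 at the entry to S phase (chr7:38097984-38107534, minus strand; window printed above). It stood at 21.7, 19.9 and 30.1 CPM in Eµ-MTCP1 mice, at 14.1, 22.1 and 22.1 CPM in Eµ-TCL1 mice and at 4.96, 9.44 and 4.68 CPM in wildtype mice, with no overlap. It rose by 1.90 ± 0.35 on the log2 scale in Eµ-MTCP1 mice (adjusted p = 0.00814, called under all 19 alternatives) and by 1.60 ± 0.35 in Eµ-TCL1 mice (adjusted p = 0.0176). The call in Eµ-TCL1 mice was lost without B4437, C1594, Z2754 or Z2785, with log2 fold changes of 1.43 to 1.501 and adjusted p up to 0.0802. Without both Z2641 and Z2755 the fold changes of Ccne1 were 2.06 and 1.98 and both were called. Ccne2, the gene of cyclin E2, was at 0.426 to 3.47 CPM in all mice and overlapped.

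The kinase genes did not share this pattern. Cdk4 was at 277, 220.5 and 251 CPM with hMTCP1, 213, 321 and 252 CPM with hTCL1 and 179.8, 206 and 226 CPM in wildtype mice, with log2 differences of 0.29 (95% interval -0.15 to 0.74) and 0.36 (-0.08 to 0.81). Cdk2, the kinase that cyclin E1 binds, lay within 26.1 to 35.4 CPM in all 9 mice. Cdk6 was lowest in the Eµ-MTCP1 mice, at 9.68, 1.85 and 10.1 CPM, against 8.99, 20.6 and 10.1 CPM in Eµ-TCL1 and 15.6, 13.2 and 25.2 CPM in wildtype mice. Its log2 difference of -1.33 ± 0.58 in Eµ-MTCP1 mice did not pass the test (adjusted p = 0.186).

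The reference behind these counts held in essence the coding sequence of each transcript, and for Cdk6 and E2f2 the choice of table decided the call. On the standard reference, with whole transcripts, Cdk6 had 17.4, 6.59 and 17.6 CPM with hMTCP1, 18.5, 44.4 and 24.6 CPM with hTCL1 and 36.9, 41.1 and 40.2 CPM in wildtype mice, and fell in Eµ-MTCP1 mice by 1.48 on the log2 scale (adjusted p = 0.0469). The call of E2f2, an activating E2F, also turned on the reference. On coding sequence it was at 21.99, 17.6 and 16.7 CPM with hMTCP1, 22.6, 16.9 and 20.6 CPM with hTCL1 and 10.8, 15.3 and 9.67 CPM in wildtype mice, and all 6 transgenic mice lay above the wildtype mice, yet neither difference passed the test (0.65 and 0.74, adjusted p = 0.166 and 0.115). On the standard reference it was at 99.8, 55.6 and 70.3, then 90.3, 55.6 and 58.8, and in wildtype mice 37.7, 33.8 and 37.8 CPM, and rose by 1.08 (adjusted p = 0.028) and 0.93 (adjusted p = 0.0488). The deposited gene count table gave the same calls for both genes, with adjusted p of 0.0339 for Cdk6, and 0.0282 and 0.0473 for E2f2. For Rb1 and Rbl1, which encode RB and p107, and for E2f1, E2f3 and E2f8 the adjusted p was 0.202 to 0.922 with hMTCP1 and 0.605 to 0.933 with hTCL1.

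Of 14 genes of S phase and DNA replication, Tyms was the 1 that passed the test, in Eµ-MTCP1 against wildtype mice. Pseudogene copies of Ccnd3, Pcna, Tyms, Ccnb1 and Ccnb2 are annotated and were absent from the coding reference, so a read from a copy could have been given to its gene, and on the standard reference the copies reached at most 3.13 CPM. Tyms encodes thymidylate synthase, which makes dTMP for DNA synthesis (chr5:30058202-30073617, minus strand). It stood at 43.6, 30.8 and 91.5 CPM with hMTCP1, 35.1, 33.3 and 29.7 CPM with hTCL1 and 11.03, 26.1 and 18.1 CPM in wildtype mice. All 6 transgenic mice lay above the wildtype mice, although by little in C1594. Tyms rose by 1.58 ± 0.41 on the log2 scale in Eµ-MTCP1 mice (adjusted p = 0.0377), while the value in Eµ-TCL1 mice was 0.83 ± 0.41 (adjusted p = 0.239). The direct difference between the transgenic groups was -0.76 (adjusted p = 0.812). The Eµ-MTCP1 call held under 10 of 19 alternatives. It was lost without Z2551 (1.73), Z2641 (0.99), B4376 (1.58), B4437 (1.57), Z2754 (1.32) or Z2785 (1.57), and without both Z2641 and Z2755 (1.32, adjusted p = 0.0581).

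The replication helicase and the polymerase clamp showed no such difference. Mcm5, a subunit of the MCM helicase, was at 204, 86.5 and 270.4 CPM with hMTCP1, 128, 213 and 134 CPM with hTCL1 and 70.1, 158 and 123 CPM in wildtype mice (log2 differences 0.68 and 0.44, adjusted p = 0.338 and 0.556). Pcna, the sliding clamp, was at 139.5, 166 and 252 CPM with hMTCP1, 142, 227 and 195 CPM with hTCL1 and 211, 157 and 159 CPM in wildtype mice (0.08 and 0.10). Tk1, thymidine kinase of the salvage pathway, was at 34.5, 14.5 and 80.1 CPM, then 16.3, 37.3 and 21.6 CPM, and in wildtype mice 19.9, 27.0 and 23.3 CPM (0.87 and 0.10, adjusted p = 0.324 and 0.93). In each of these 3 genes Z2641 was the highest mouse of all 9 and Z2606 lay within the wildtype range or below it.

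The 10 remaining genes of the group (Mcm2, Mcm3, Mcm4, Mcm6, Mcm7, Rrm1, Rrm2, Cdc6, Cdt1 and Gins2) had log2 differences of -0.10 to 1.66 with hMTCP1 and -0.70 to 0.82 with hTCL1, none past the test. Over all 14 the median was 0.58 in Eµ-MTCP1 mice, with 13 above 0, and 0.10 in Eµ-TCL1 mice, with 10 above 0. Without Z2641 the Eµ-MTCP1 median was 0.07 with 8 above 0, and without B4437 the Eµ-TCL1 median was -0.21. Without both Z2641 and Z2755 the medians were 0.27 and 0.23.

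The 16 genes of G2 and M phase had a median log2 difference of 1.22 in Eµ-MTCP1 mice, with 16 of 16 above 0, and of 0.57 in Eµ-TCL1 mice, with 14 of 16 above 0. Of the 16, 1 passed the test in Eµ-MTCP1 mice and none did in Eµ-TCL1 mice. Before adjustment, 12 and 3 of the 16 (75% and 18.75%) had a p under 0.05 in edgeR's test, all higher, beside 13.5% and 13.2% of all genes higher. By DESeq2, 9 of the 47 members were called in Eµ-MTCP1 mice, all higher, where 14.7% of all genes were called (8.36% higher, 6.39% lower).

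The gene that passed was Mki67, encoding Ki-67, a protein of dividing cells that coats mitotic chromosomes (chr7:135689784-135716361, minus strand; window printed above). It stood at 200.3, 112 and 515 CPM with hMTCP1, 185, 222 and 175 CPM with hTCL1 and 71.0, 104.5 and 74.0 CPM in wildtype mice. All 6 transgenic mice lay above the wildtype mice, Z2606 by the least and Z2641 by far the most. The log2 fold change was 1.73 ± 0.46 in Eµ-MTCP1 mice (adjusted p = 0.0409) and 1.22 ± 0.45 in Eµ-TCL1 mice (adjusted p = 0.123). Neither side of the threshold was stable. In Eµ-MTCP1 mice the call was lost under 11 of 19 alternatives, among them leaving out any mouse other than Z2606, and the log2 value without Z2641 was 0.88. In Eµ-TCL1 mice it was gained under 4, and without both Z2641 and Z2755 the values were 1.06 (adjusted p = 0.0896) in Eµ-MTCP1 and 1.39 (adjusted p = 0.0233) in Eµ-TCL1 mice.

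Cdk1, the mitotic kinase, was at 40.8, 15.6 and 119 CPM with hMTCP1, 26.6, 41.3 and 17.9 CPM with hTCL1 and 10.8, 15.8 and 21.2 CPM in wildtype mice (log2 difference 1.88 ± 0.62, adjusted p = 0.0916, and 0.85, adjusted p = 0.43). Cdc20, which activates the anaphase-promoting complex, was at 98.6, 33.4 and 162 CPM, then 56.0, 65.6 and 44.95 CPM, and 23.8, 59.0 and 48.6 CPM in wildtype mice. Birc5, encoding survivin, was at 22.97, 6.39 and 54.0 CPM, then 11.5, 17.8 and 13.4 CPM, and 9.04, 14.4 and 9.97 CPM in wildtype mice. In all 3 genes Z2606 fell within the wildtype range or below it, so that the Eµ-MTCP1 and wildtype mice overlapped. The promoter stretches of Cdk1 and Cdc20 are among those printed above. Cyclin A2 (Ccna2) and the transcription factor Foxm1 were higher in all 6 transgenic than in all 3 wildtype mice, at 27.4 to 144 against 18.3 to 27.0 CPM and at 7.25 to 29.4 against 4.53 to 7.16 CPM. Their log2 differences in Eµ-MTCP1 mice were 1.71 and 1.64 (adjusted p = 0.0668 and 0.0561).

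The remaining 10 genes of the group (Top2a, Ccnb1, Ccnb2, Aurka, Aurkb, Plk1, Bub1, Bub1b, Mybl2 and Kif11) had log2 differences of 0.03 to 1.58 with hMTCP1 and -0.46 to 1.22 with hTCL1. Aurka, the Aurora kinase of the spindle poles, was level in both (0.03 and -0.11). Without Z2606, 9 G2 and M phase genes were called in Eµ-MTCP1 mice with a median of 1.56, where 4.52% of all genes in that fit were called higher. Without Z2641 the median was 0.48, and without both Z2641 and Z2755 it was 0.69, with 0.72 in Eµ-TCL1 mice.

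**Figure D4:**
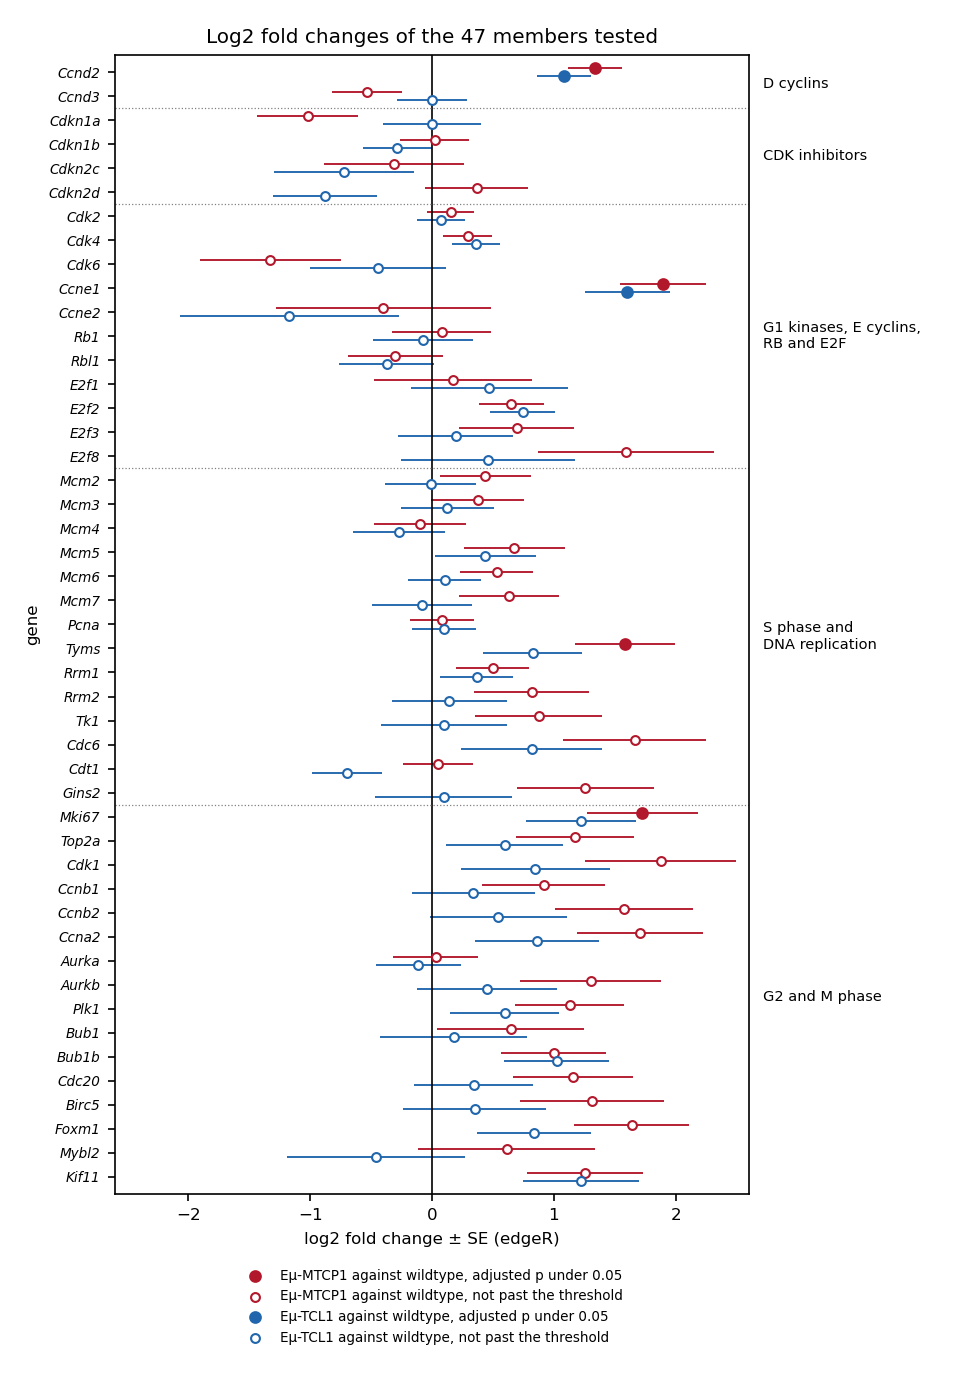
Log2 fold change against wildtype mice (horizontal axis) of each of the 47 members tested (vertical axis, by role), with bars of 1 SE, red for Eµ-MTCP1 and blue for Eµ-TCL1 mice; filled points passed an adjusted p of 0.05. Ccnd2 and Ccne1 are filled in both colors, Tyms and Mki67 in red alone, and the red points of the 16 G2 and M phase genes all lie above 0.

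Counting mice rather than tests, 11 members did not overlap between Eµ-MTCP1 and wildtype mice (9 above, 2 below) and 13 did not between Eµ-TCL1 and wildtype mice (10 above, 3 below). The members above were 19.1% and 21.3% of the 47, beside 14.7% and 16.6% of all genes, and those below 4.26% and 6.38%, beside 15.3% and 16.1%. No test of these shares was made. Members with all 6 transgenic mice above all 3 wildtype mice were Ccnd2, Ccne1, E2f2, Tyms, Mki67, Ccna2 and Foxm1, which is 7 of 47, beside 9.44% of all genes. No member had all 6 below, beside 9.14% of all genes.

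The spread between mice of a group ran through whole blocks of genes. Within the Eµ-MTCP1 group Z2641 was the highest mouse in 14 of 14 S phase and 16 of 16 G2 and M phase genes, and Z2606 the lowest in 11 of 14 and 16 of 16. Within the Eµ-TCL1 group B4437 was highest in 12 of 14 and 15 of 16, and within the wildtype group Z2755 in 11 of 14 and 15 of 16. The summed level of the 14 S phase genes was 1290, 931 and 2271 CPM with hMTCP1, 954, 1481 and 1013 CPM with hTCL1 and 932, 1288 and 1031 CPM in wildtype mice. For the 16 G2 and M phase genes it was 782, 357 and 1800 CPM, then 566, 795 and 533 CPM, and 296, 498 and 374 CPM in wildtype mice.

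In each group the mouse with the highest sums also had the highest summed level of Mpo and Elane, though in the Eµ-TCL1 group through Mpo alone. The summed Mpo and Elane level was 35.3, 82.7 and 1265 CPM in Z2551, Z2606 and Z2641, 44.95, 54.5 and 17.4 CPM in B4376, B4437 and C1594, and 173, 2985 and 174 CPM in Z2754, Z2755 and Z2785. Z2641, B4437 and Z2755 led their groups in this sum as in the cell cycle sums, B4437 at a level below that of every wildtype mouse. B4437 led through Mpo (43.96 CPM, against 29.6 CPM in B4376). Elane (10.56 against 15.35 CPM), S100a8 (11.17 against 22.41 CPM) and S100a9 (30.57 against 76.07 CPM) were higher in B4376. Z2551 stood above all wildtype mice in the G2 and M phase sum with the lowest Mpo and Elane level of its group. The reads of Z2641 also held more mitochondrial transcripts than those of the other Eµ-MTCP1 mice, and those of Z2606, mostly the lowest of that group, more immunoglobulin transcripts. Z2754, with the highest mitochondrial share of all, was the lowest wildtype mouse in 10 of 14 S phase and 11 of 16 G2 and M phase genes. Some marker RNA of other cell types differed between groups too. The summed level of 8 markers of germinal center B cells, a dividing population, was 35.0 to 75.1 CPM in the 6 transgenic mice, below the 86.2 to 130 CPM of the wildtype mice. Of the 7 tested, 4 lay below 0 and 3 above in each comparison with wildtype mice. Bcl6 fell in both groups (-2.17, edgeR adjusted p = 0.00939, and -2.69, adjusted p = 0.0034). Gcsam had 0 to 2 reads in the transgenic and 12 to 25 in the wildtype mice, and since it passed the filter on low counts through the wildtype group alone, its call is not counted. The summed level of 7 plasma cell markers was 928 to 3945 CPM in Eµ-MTCP1, 614 to 2888 CPM in Eµ-TCL1 and 1117 to 1840 CPM in wildtype mice. Of these 7 markers, 2 were called with hMTCP1 and 1 with hTCL1, all higher. Irf4 lay lower in both groups (-0.23 and -0.43) and Jchain was at 0.52 and -0.43. Xbp1, Sdc1 and Tnfrsf17 lay above 0 in both groups, and none of these was called. Prdm1, encoding the plasma cell factor Blimp-1, rose in both groups, at 65.8, 122.7 and 28.6 CPM with hMTCP1 and 63.5, 41.1 and 74.1 CPM with hTCL1 against 12.1, 13.8 and 24.5 CPM in wildtype mice (2.11, adjusted p = 0.0227, and 1.83, adjusted p = 0.0401). Mzb1 rose in Eµ-MTCP1 mice (1.66, adjusted p = 0.0421, and 1.28 in Eµ-TCL1 mice, adjusted p = 0.101). The Prdm1 calls held under 15 and 12 of 19 alternatives and the Mzb1 call under 10. Without both Z2641 and Z2755 the Prdm1 call in Eµ-TCL1 mice and the Mzb1 call were lost. So was the Bcl6 call in Eµ-MTCP1 mice (edgeR adjusted p = 0.0704). Cd68, a macrophage marker of the myeloid list, rose in both groups, at 172 to 323 CPM with hMTCP1 and 154 to 235.5 CPM with hTCL1 against 36.1 to 68.3 CPM in wildtype mice (2.06, adjusted p = 0.00316, and 1.91, adjusted p = 0.00462, called under all 19 alternatives). It was the 1 of the 9 myeloid markers tested that was called, and the others mostly lay lower, with 5 of 9 below 0 with hMTCP1 and 7 of 9 with hTCL1 (medians -0.28 and -0.57). Beyond leaving out the 2 libraries, the part of these cells and of the composition of the reads in the results was not tested.

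**Figure D5:**
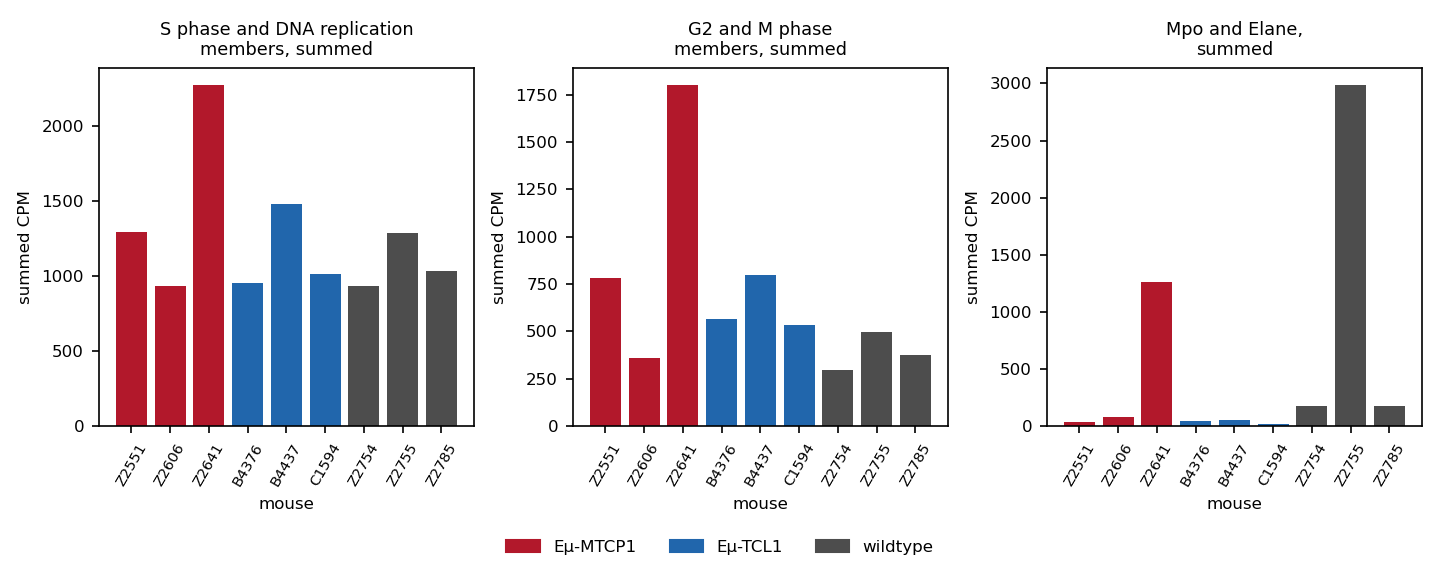
Bars give the summed normalized counts (CPM) in each of 9 mice for the 14 S phase genes, the 16 G2 and M phase genes, and the granulocyte precursor genes Mpo and Elane, red for Eµ-MTCP1, blue for Eµ-TCL1 and gray for wildtype. Z2641 is the highest bar in the first and second panels and Z2755 in the third.

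The scale mattered for the sums. In TPM, which weights by length and is not corrected for composition between libraries, the S phase sum was 1.10 times the wildtype level in Eµ-MTCP1 mice, where in CPM it was 1.38 times, and the G2 and M phase sum was 1.92 times where in CPM it was 2.52 times. These Eµ-MTCP1 ratios rest largely on Z2641. The G2 and M phase sum was 221 TPM in Z2551, 83.6 TPM in Z2606 and 509 TPM in Z2641, against 98.8, 202.7 and 122.2 TPM in wildtype mice. For Eµ-TCL1 mice the S phase ratio was 0.875 in TPM and 1.06 in CPM, and the G2 and M phase ratio 1.17 and 1.62. The ratio of the G2 and M phase sum to the S phase sum within a library does not depend on the scaling between libraries, though it does on the weighting by length. In TPM it was 0.581, 0.293 and 0.744 in Eµ-MTCP1, 0.498, 0.461 and 0.424 in Eµ-TCL1 and 0.272, 0.387 and 0.356 in wildtype mice, and in CPM 0.606, 0.384 and 0.793, then 0.594, 0.537 and 0.527, and 0.317, 0.387 and 0.362. On both scales the 3 Eµ-TCL1 mice lay above the wildtype mice, and of the Eµ-MTCP1 mice Z2606 lay within the wildtype range and the other two above it.

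Other genes of the pathway were taken from further lists. Of 53 further mitosis genes 52 were tested, and 8 rose and 1 fell in Eµ-MTCP1 mice (median 1.15), while 2 rose in Eµ-TCL1 mice (median 0.58). The genes that rose were 15.4% and 3.85% of the 52, beside 5.49% and 5.07% of all genes. Over the 19 alternatives 1 to 23 rose in Eµ-MTCP1 mice, with 23 without Z2606, 3 without Z2551 or Z2641, 2 without Z2755 or Z2785 and 1 without Z2754. The Eµ-MTCP1 median was 0.47 without Z2641, and without both Z2641 and Z2755 the medians were 0.77 and 0.72, with 2 genes called in each comparison. In Eµ-TCL1 mice 1 to 4 rose, beside 2.26 to 8.28% of all genes over the alternatives, and the median was 0.32 without B4437. Stil, needed for centriole duplication, had the highest called value in Eµ-MTCP1 mice, at 9.68, 5.54 and 23.6 CPM against 2.11, 3.04 and 1.81 CPM in wildtype mice (2.46 ± 0.57, adjusted p = 0.0233). Ttk, a kinase of the spindle checkpoint, rose in both groups, at 7.71, 14.8 and 20.98 CPM in Eµ-MTCP1 and 8.44, 8.47 and 22.3 CPM in Eµ-TCL1 mice against 2.73, 2.71 and 2.87 CPM in wildtype mice (2.38, adjusted p = 0.0157, and 2.23, adjusted p = 0.0201). Cenpm, a centromere protein, rose in Eµ-MTCP1 mice by 2.18 (adjusted p = 0.0269). In Eµ-MTCP1 mice Stil, Ttk and Cenpm were called under 14, 16 and 13 of 19 alternatives.

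Racgap1, whose product organizes the central spindle in cytokinesis, rose in both groups by similar amounts. It stood at 124.9, 115 and 172 CPM with hMTCP1, 119.9, 128 and 153 CPM with hTCL1 and 20.4, 39.0 and 36.1 CPM in wildtype mice. The log2 fold changes of 2.11 ± 0.27 (adjusted p = 0.00115) and 2.07 ± 0.27 (adjusted p = 0.00113) were called under all 19 alternatives in both comparisons. Z2606, which lay within or near the wildtype range in most G2 and M phase members, lay well above all wildtype mice in Racgap1. Without both Z2641 and Z2755, Racgap1 and Prc1, which bundles the microtubules of the central spindle, were the 2 further mitosis genes called in either comparison. The gene that fell was Pttg1, encoding securin (-0.94, adjusted p = 0.047), named here after its value was seen.

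Of 42 further replication genes none was called in either comparison, with 6 and 2 at an unadjusted p under 0.05 in edgeR's test (14.3% and 4.76% of the 42, beside 24.97% and 25.08% of all genes), and the medians were 0.37 and -0.11. Of 25 further regulators of G1 and quiescence 24 were tested, and 1 was called in each comparison, 4.17% of the 24, beside 9.48% and 9.2% of all genes. Btg1, an antiproliferative gene of resting lymphocytes, fell in Eµ-MTCP1 mice, at 239, 272 and 138 CPM against 520.5, 561 and 471 CPM in wildtype mice (-1.26 ± 0.29, adjusted p = 0.0238), and stood at 229.7, 358 and 198 CPM in Eµ-TCL1 mice (-0.98, adjusted p = 0.0627). Wee1, the kinase that holds CDK1 inactive, rose in Eµ-TCL1 mice, at 16.9, 17.9 and 17.8 CPM against 9.79, 8.47 and 5.74 CPM (1.13, adjusted p = 0.0454). With all 6 transgenic mice below all 3 wildtype mice stood Btg1, Rbl2 (p130), Foxo1 and Ccng2, 4 of the 24, beside 9.14% of all genes. Cdkn2b, encoding the CDK inhibitor p15 of the INK4 family, was the 1 gene of the 24 with all 6 above, at 0.415 to 6.16 CPM against 0 to 0.326 CPM in wildtype mice, which is below the depth limit there, and it passed the test in neither comparison (adjusted p = 0.176 and 0.055). Rbl2, Foxo1, Ccng2, Cdkn2b and the single markers above were named after their values were seen. Of 14 p53 target genes 12 were tested and 1 was called (8.33%, beside 9.2% of all genes), Phlda3, an inhibitor of AKT signaling, in Eµ-TCL1 mice, where it stood at 2.63, 2.46 and 2.66 CPM against 0.124, 0.543 and 0.151 CPM (3.12, adjusted p = 0.03), which is near the depth limit. Phlda3 was at 0.82 to 1.32 CPM in Eµ-MTCP1 mice and passed the filter on low counts through the Eµ-TCL1 libraries alone, so its values are a description and its call is no support for the list. These calls held under 15 (Btg1), 6 (Wee1) and 12 (Phlda3) of 19 alternatives.

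Eµ-TCL1 and Eµ-MTCP1 mice were then compared directly, to ask whether the leukemic B cells of the 2 groups differ in these genes. None of the 47 members was called by edgeR or by DESeq2, beside 0.0448% of all genes by edgeR, or 5 genes, 0.0269% higher and 0.0179% lower with hTCL1. There were 3 members under 0.05 before adjustment, 6.38% of the 47, beside 6.42% of all genes. These were Cdkn1a, with a log2 difference of Eµ-TCL1 from Eµ-MTCP1 of 1.02, Cdkn2d with -1.25 and Cdt1 with -0.75, and their edgeR adjusted p was 0.701, 0.678 and 0.686. Cdkn1a (above) and Cdkn2d (below) did not overlap between the 2 groups, beside 11% of all genes (5.42% above, 5.62% below). For Ccnd2 the difference was -0.26 with a 95% interval of -0.74 to 0.23, and for Ccne1 -0.29 with an interval of -1.04 to 0.45, so that at 3 mice a group differences of up to these bounds cannot be told from none. The median over the members was -0.47, with 13 of 14 S phase and 15 of 16 G2 and M phase genes lower in Eµ-TCL1 mice. Without Z2641 the medians of the S phase and of the G2 and M phase genes were -0.00 and 0.15, and without both Z2641 and Z2755 they were 0.01 and 0.16, so that the lower Eµ-TCL1 levels rested on this 1 mouse.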

How the data were processed

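RNA from splenic B cells of 9 mice, 1 library each, was grouped by the labelled transgene into Eµ-MTCP1, Eµ-TCL1 and wildtype (3 mice each). The authors quantified transcripts with Salmon 1.0.0 on a mouse reference to which human sequences had been added and on a standard one, and deposited expected counts and TPM per transcript. They also deposited raw counts per gene, for which HISAT2 2.0.6, Subread and featureCounts stand in the submitters' processing notes without a role, and normalized log2 abundances, used here for the gene names and the transgene levels alone. Columns with the authors' own fold changes and p-values were not used, and 0 columns of samples went unmapped. In the first reference 55039 of the 57756 transcripts shared with the standard one were shorter and 0 longer, and 87.3% of lengths were multiples of 3, so its lengths are called coding lengths. Reads in noncoding exons are not counted there.

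Expected counts were summed per gene (GENCODE names, GRCm38) and rounded. edgeR 4.0.16 (R 4.3.3) was run with filterByExpr (11165 of 22154 genes kept), TMM normalization and the quasi-likelihood F test, all 9 libraries in 1 fit, with Benjamini-Hochberg adjustment and a threshold of 0.05. The common biological coefficient of variation was 0.371. Standard errors are the log2 fold change over the root of F, and 95% intervals use a t quantile of 2.217. The scripts were tested on simulated data. CPM are per effective library size. Library totals of 6447539 to 8033309 assigned reads set a limit of 3 reads for detection, which covers counting error only. Of 19 alternative settings, among them DESeq2 1.42.0, 18 were planned, and 1, which leaves out Z2641 and Z2755, was chosen after seeing the data. The 49 genes, their 5 role groups and the further lists were chosen with earlier results of these data known, and no test over a list was made. Values per mouse are given for every D cyclin and CDK inhibitor, for every other member called in any comparison, and for the 3 members with the highest mean TPM in each other role group. E2f2, Ccna2 and Foxm1 were added because all 6 transgenic mice lay above the wildtype mice. Of each further list up to 3 called genes with the largest change were named.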

Additional observations from a re-analysis of the deposited data

How the results depend on the processing

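Each comparison was repeated under 19 alternatives, and the direction of Ccnd2 and Ccne1 held under each in both comparisons with wildtype mice. For Eµ-MTCP1 against wildtype mice, where 1059 genes and 4 members were called, DESeq2 called 1646 genes and 9 members. The gene counts as deposited gave 1462 genes (10.04% of those tested) and 7 members. Library size alone, a fit of only the 2 groups, and a fit without both Z2641 and Z2755 called 2 members each. These 3 fits called 1121, 980 and 507 genes (10.04%, 9.13% and 4.48%). Leaving out 1 mouse gave 525 to 1028 genes and 2 to 13 members. For Eµ-TCL1 against wildtype mice (1027 genes, 2 members) DESeq2 called 1695 genes, and leaving out 1 mouse gave 517 to 1240 genes and 0 to 3 members, with none without Z2754. For Eµ-TCL1 against Eµ-MTCP1 mice (5 genes) the counts were 16 without the filter, 73 by DESeq2 and 5 to 8 without 1 mouse. On the standard reference 5 members did not overlap where 2 did not. The share over all genes on that reference was not computed, so no result is drawn from this count. Library size alone moved the median log2 change of all genes to -0.26 and -0.15, and 391 of 1121 and 446 of 1039 called genes were then higher, where 613 of 1059 and 566 of 1027 were. Without immunoglobulin genes 590 of 873 and 550 of 835 were higher.

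Under at least 1 alternative the log2 difference changed sign for 17 of the 47 members tested in Eµ-MTCP1 mice, for 16 in Eµ-TCL1 mice and for 26 in the direct comparison. Of these 12, 11 and 18 are members without values per mouse by the naming rule, among them, in Eµ-MTCP1 mice, Mybl2 (down to -0.87), Aurka (-0.39) and Bub1 (-0.15). For the others the values were as follows, and the cause was not tested. Library size alone gave, in Eµ-MTCP1 mice, -0.21 for Cdkn1b, -0.082 for Cdk2 and -0.15 for Pcna, in Eµ-TCL1 mice -0.067 for Cdk2, -0.038 for Pcna and -0.041 for Tk1, and 0.015 for Cdk2 in the direct comparison. The gene count table gave, in Eµ-MTCP1 mice, -0.28 for Cdkn1b, 0.31 for Cdkn2c and -0.035 for Pcna, and in Eµ-TCL1 mice 0.040 for Cdkn1a and -0.061 for Tk1. The standard reference gave -0.32 for Cdkn1b and 0.22 for Cdkn2c in Eµ-MTCP1 mice and 0.12 for Cdkn1a and -0.019 for Tk1 in Eµ-TCL1 mice. Length offsets gave 0.063 for Cdkn1a in Eµ-TCL1 mice, and a fit of only the 2 groups -0.0075 for Cdkn1b in Eµ-MTCP1 mice. Without both Z2641 and Z2755 Cdkn1b, Cdkn2d and Pcna were at -0.32, -0.41 and -0.32 in Eµ-MTCP1 mice, Ccnd3 and Pcna at 0.21 and -0.0084 in Eµ-TCL1 mice, and Cdkn2c, Mcm5, Tk1, Mki67 and Cdk1 at 0.29, 0.14, 0.050, 0.33 and 0.034 in the direct comparison.

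Leaving out 1 mouse at a time gave ranges that cross 0 for other uncalled differences. In Eµ-MTCP1 mice they were -0.23 to 0.15 for Cdkn1b, -0.39 to 0.65 for Cdkn2d and -0.23 to 0.25 for Pcna. In Eµ-TCL1 mice they were -0.21 to 0.21 for Ccnd3, -0.21 to 0.21 for Cdkn1a, -0.0023 to 0.13 for Cdk2, -0.086 to 0.27 for Pcna and -0.33 to 0.33 for Tk1. In the direct comparison they were -0.67 to 0.27 for Cdkn2c, -0.20 to 0.016 for Cdk2, -0.11 to 0.20 for Cdk4, -0.58 to 0.13 for Mcm5, -0.16 to 0.29 for Pcna, -1.19 to 0.037 for Tk1, -0.88 to 0.31 for Mki67 and -1.48 to 0.020 for Cdk1.

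No paired analysis was possible because the labels give no replicate numbers and nothing ties a mouse of one group to a mouse of another. Depth limits Ccnd1, Cdkn2a, Cdkn2c and Ccne2, which have few reads. Cdk6 and E2f2 passed the test on the standard reference and on the gene count table, and under no other alternative.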
